A study of Homo sapiens with 12 samples.

Results

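The proteasome genes described here are the 41 genes with the symbols PSMA1 to PSMA7, PSMB1 to PSMB10, PSMC1 to PSMC6, PSMD1 to PSMD14 and PSME1 to PSME4 that carry rows in both deposited count tables, out of 17099 genes in the OCI-AML2 table and 16820 in the MOLM-13 table. They were chosen by symbol. Polyadenylated RNA was sequenced from 2 established human acute myeloid leukaemia cell lines, OCI-AML2 and MOLM-13. The 4 groups of 3 libraries were OCI-AML2 with 200 nM selinexor, OCI-AML2 with vehicle (DMSO), MOLM-13 with 75 nM selinexor and MOLM-13 with vehicle, all taken after 36 h. Selinexor is a small molecule that blocks XPO1, the receptor that carries many proteins out of the nucleus. The comparison asks how transcripts of the protein-degrading machinery differ with the inhibitor. Line and dose cannot be told apart, and both models are single cell lines in culture.

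The proteasome is the protease that breaks down proteins tagged with ubiquitin. Its barrel, the core particle, is built from rings of alpha subunits, which gate the entrance, and beta subunits, of which PSMB5, PSMB6 and PSMB7 cut peptide bonds. A regulatory particle of ATPases (PSMC genes) and non-ATPase subunits (PSMD genes) caps the barrel, binds ubiquitin and unfolds the substrate. Under interferon-gamma, and constitutively in many blood cells, PSMB8, PSMB9 and PSMB10 take the places of PSMB5, PSMB6 and PSMB7 in newly built barrels, forming the immunoproteasome, and PSME1 and PSME2 form an alternative cap; these change the peptides offered on HLA class I. NFE2L1, a transcription factor, raises the constitutive subunit genes together when proteasome activity is short.

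Library totals were 8650518 to 9774423 counts in OCI-AML2 with selinexor, 9506571 to 11769061 in OCI-AML2 with vehicle, 8114892 to 9711704 in MOLM-13 with selinexor and 8160133 to 9444344 in MOLM-13 with vehicle. No 2 libraries of a group held the same values. Library 2 of the OCI-AML2 vehicle group lay somewhat apart from its group, with a chi-square statistic per gene of 4.04 and 5.56 against the other libraries, where all other pairs within a group lay between 1.61 and 2.37. All 7 myeloid markers examined had counts in every group. Their summed level was 11372 to 11642 CPM with selinexor, against 2957 to 3168 CPM with vehicle in OCI-AML2, and 2688 to 2730 CPM against 1095 to 1113 CPM in MOLM-13 (CPM, the library-size-scaled count with TMM scaling within a line). Over all groups, T or NK cell markers summed to 10.7 to 17.6 CPM, B cell markers to 0.747 to 4.10 CPM and erythroid markers to at most 0.486 CPM. Epithelial or stromal markers summed to at most 1.16 CPM in OCI-AML2, and to 32.6 to 42.0 CPM with selinexor against 12.1 to 12.6 CPM with vehicle in MOLM-13. CD3E, CD2, MS4A1, HBA1, HBB and EPCAM carry no row in the tables used and were not analysed here. In bulk RNA, fewer cells of a type and less RNA per cell cannot be told apart, and the part of these marker shifts in the results was not tested.

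Promoter sequences of 5 genes are shown because these genes carry the main patterns: PSME1, the gene that rose in both lines; PSMB9, which rose in MOLM-13; PSMB10, with the largest called difference between lines; and PSMD11 and PSMC3, which held the largest fall or the next largest in MOLM-13. Each is the 250 bases before the transcription start in RefSeq (GRCh38.p14), 5′ to 3′ on the gene's strand, with searched motif letters in capitals.
PSME1, chr14:24135944-24136193 plus strand: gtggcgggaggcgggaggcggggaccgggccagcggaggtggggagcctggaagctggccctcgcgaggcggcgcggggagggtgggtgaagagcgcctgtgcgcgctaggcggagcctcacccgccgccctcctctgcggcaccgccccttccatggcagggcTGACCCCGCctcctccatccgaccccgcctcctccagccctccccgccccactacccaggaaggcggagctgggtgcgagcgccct
PSMB9, chr6:32853942-32854191 plus strand: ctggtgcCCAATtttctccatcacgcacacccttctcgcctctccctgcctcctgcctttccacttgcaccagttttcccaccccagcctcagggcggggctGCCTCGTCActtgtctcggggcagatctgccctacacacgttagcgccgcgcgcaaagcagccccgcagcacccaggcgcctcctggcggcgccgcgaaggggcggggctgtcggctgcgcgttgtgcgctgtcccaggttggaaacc
PSMB10, chr16:67936851-67937100 minus strand: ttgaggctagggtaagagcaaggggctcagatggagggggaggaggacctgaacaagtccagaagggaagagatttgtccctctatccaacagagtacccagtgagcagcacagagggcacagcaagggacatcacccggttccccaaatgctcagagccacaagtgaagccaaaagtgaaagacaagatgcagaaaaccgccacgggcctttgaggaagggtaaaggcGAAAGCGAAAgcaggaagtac
PSMD11, chr17:32444260-32444509 plus strand: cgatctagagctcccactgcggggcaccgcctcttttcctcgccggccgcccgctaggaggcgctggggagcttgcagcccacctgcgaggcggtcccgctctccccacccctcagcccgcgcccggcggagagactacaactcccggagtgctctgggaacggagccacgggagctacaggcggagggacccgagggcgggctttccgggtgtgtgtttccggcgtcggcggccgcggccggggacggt
PSMC3, chr11:47426440-47426689 minus strand: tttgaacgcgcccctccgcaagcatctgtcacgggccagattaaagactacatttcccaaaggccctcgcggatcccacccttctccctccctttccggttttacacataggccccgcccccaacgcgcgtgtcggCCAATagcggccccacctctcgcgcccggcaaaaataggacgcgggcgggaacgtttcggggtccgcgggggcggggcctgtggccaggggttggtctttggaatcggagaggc
The motifs searched on both strands were TGACNNNGC, the core bound by NFE2L1 and NFE2L2, TTCNNNGAA, the core bound by STAT factors, GAAA, any 2 bases and GAAA again, the core bound by interferon regulatory factors (called the IRF core here), and CCAAT, the letters bound by NF-Y; TTCNNNGAA and the IRF core can share letters.

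RefSeq promoters matched 36 of the 41 genes in 43 windows; PSMA7, PSMB1, PSMB6, PSMB7 and PSMD4 had no entry. TGACNNNGC stood in 11 of the 43 windows, against 10.9% of 35116 promoter windows in the table. These letters begin 86 bases before the start of PSME1 and, on the opposite strand, stand 148 bases before that of PSMB9. The IRF core stood in 4 of the 43 windows (PSMA4, PSMB4, PSMB10 and PSME2), against 3.02% of all windows, and begins 21 bases before the start of PSMB10. TTCNNNGAA stood in 6 windows, against 6.57%, and CCAAT in 17, against 32.0%. PSMC3 has CCAAT 114 bases before its start, PSMB9 has it at 243 bases, and the PSMD11 window holds none of the 4. A match of letters is a description of the window only.

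Most constitutive proteasome genes fell with selinexor in both lines. In OCI-AML2, 29 of the 41 genes fell, 1 rose (PSME1) and 11 did not pass the test, where 63.1% of 12086 genes tested were called in either direction, 31.8% lower and 31.3% higher (edgeR's quasi-likelihood test, Benjamini-Hochberg adjusted p under 0.05). In MOLM-13, 31 fell, 3 rose (PSMB9, PSMD5 and PSME1) and 7 did not pass, where 63.6% of 11807 genes tested were called, 31.8% lower and 31.8% higher. The median log2 fold change of the 41 genes was -0.47 (OCI-AML2) and -0.46 (MOLM-13), beside medians of -0.00 and 0.01 over all genes tested. The selinexor libraries all lay below the vehicle libraries for 29 genes in OCI-AML2, where 33.3% of all genes did so, and all above for 3, where 33.0% did so (66.3% either way). They all lay below for 31 genes in MOLM-13, where 32.8% did so, and all above for 2, where 32.7% did so (65.5% either way). The falls were moderate in size: the called ones ran between log2 fold changes of -1.01 and -0.14 in OCI-AML2 and between -0.99 and -0.14 in MOLM-13.

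The same 29 genes fell in both lines, and 1 gene, PSME1, rose in both. PSMB10 and PSMD4 fell in MOLM-13 and did not pass in OCI-AML2, PSMB9 and PSMD5 rose in MOLM-13 and did not pass in OCI-AML2, and 7 genes passed in neither line. Summed over the 36 genes outside the immunoproteasome, the level was 3797 ± 49.7 CPM with selinexor and 5574 ± 8.04 CPM with vehicle in OCI-AML2 (SD, n = 3 libraries each). In MOLM-13 this sum was 3777 ± 19.8 CPM with selinexor and 5347 ± 62.4 CPM with vehicle. The 5 immunoproteasome genes summed to 427 ± 12.1 CPM with selinexor and 371 ± 22.6 CPM with vehicle in OCI-AML2, and to 457 ± 0.752 CPM against 425 ± 14.1 CPM in MOLM-13. In each line the selinexor libraries thus lay below the vehicle libraries for the first sum and above them for the second. The second sum includes PSME1, and the 5 genes did not rise as a set. PSMB8, PSMB9 and PSMB10 alone summed to 216 ± 7.29 CPM with selinexor and 204 ± 8.46 CPM with vehicle in OCI-AML2. In MOLM-13 they summed to 146 ± 3.56 CPM against 150.5 ± 3.97 CPM. The libraries of this smaller sum overlapped between treatments in both lines.

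**Figure D1:**
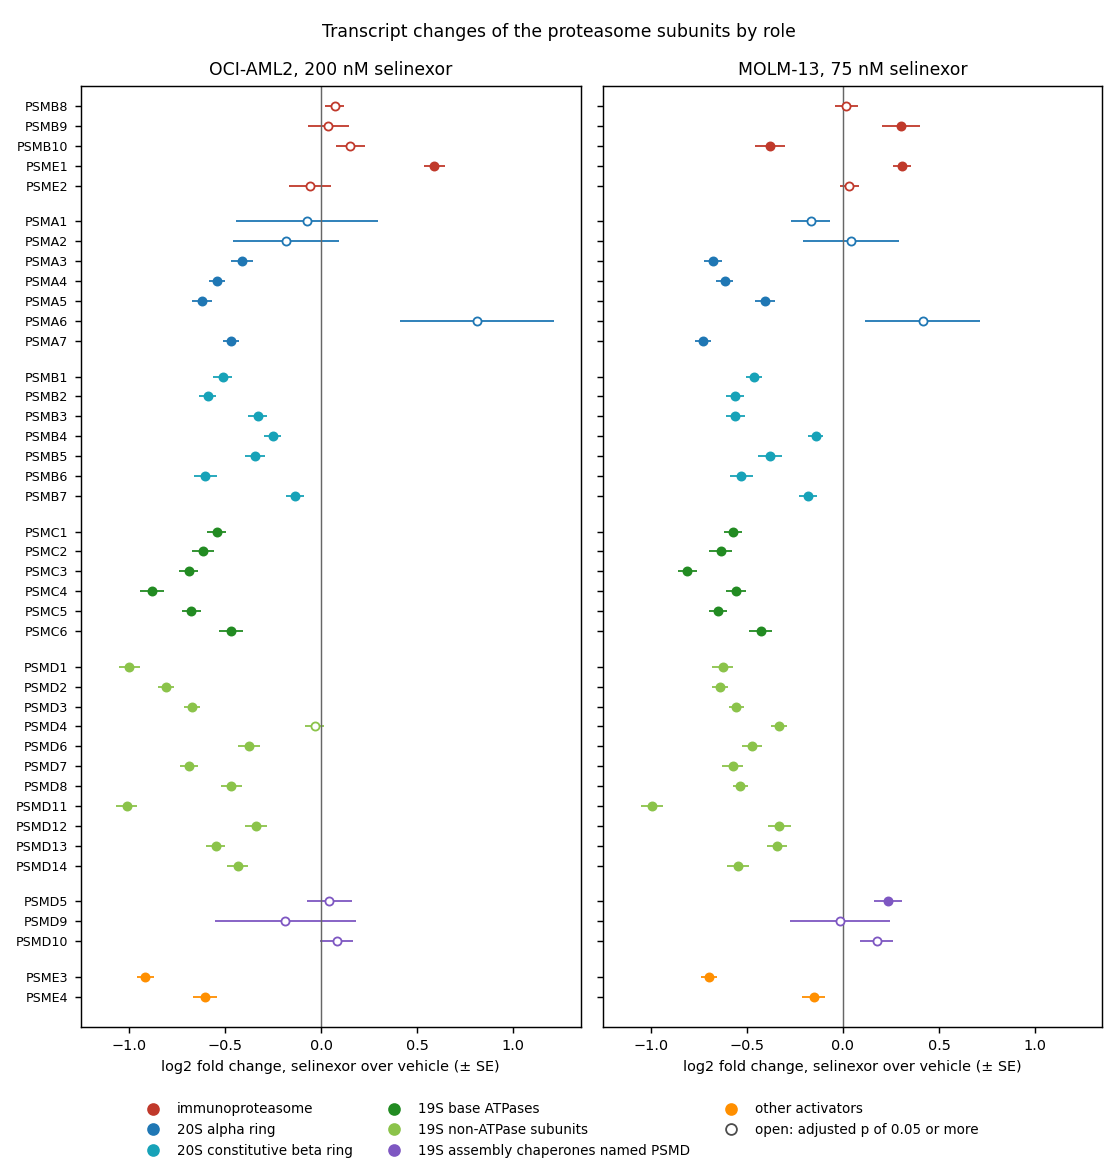
Log2 fold change of each proteasome gene, selinexor over vehicle (x axis, estimate ± SE from 3 against 3 libraries), ordered by role, for OCI-AML2 (left) and MOLM-13 (right); filled points have an adjusted p under 0.05. Filled points lie left of 0 for 29 genes in OCI-AML2 and 31 in MOLM-13, and the immunoproteasome genes at the top lie near or right of 0 apart from PSMB10 in MOLM-13.

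The alpha ring, which forms the ends and the gate of the barrel, fell in 4 of 7 genes in each line, with a median log2 fold change of -0.41 in both. These were PSMA3, PSMA4, PSMA5 and PSMA7. PSMA7 had log2 fold changes of -0.47 ± 0.043 in OCI-AML2 and -0.73 ± 0.043 in MOLM-13 (estimate ± SE), and PSMA5 of -0.62 ± 0.053 and -0.41 ± 0.050. PSMA1, PSMA2 and PSMA6 passed in neither line. Counts were low for PSMA2 and PSMA6, as for PSMD9.

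PSMA1, PSMA2, PSMA6 and PSMD9 were set apart after their counts were seen. Their libraries held 5 to 400 counts. In the OCI-AML2 vehicle group their means ran between 1.05 and 27.3 CPM, and those of the other 37 genes between 16.3 and 541 CPM. PSMA1 was not below all of the others. Scaled over the 12 libraries, it averaged 26.8 ± 10.8 CPM in that group, with libraries between 14.7 and 35.2 CPM. PSMB9 and PSMD5, which were not set apart, averaged 20.9 ± 1.56 and 16.1 ± 1.46 CPM on that scale. In GENCODE 29 (GRCh38), the exons of their coding transcripts share 35.7% (PSMA1), 52.5% (PSMA2), 63.9% (PSMA6) and 43.8% (PSMD9) of their bases with another gene on the same strand. PSMC1 and PSMD7 averaged 175 ± 11.3 and 208 ± 10.1 CPM in the OCI-AML2 vehicle group. Counting either strand, other genes covered 82.1% and 42.4% of their coding-transcript bases. On the same strand, the measure given for the genes above, the share was 0% for both. The part of overlap in the counts of any of these genes was not tested. PSMA6 had the highest fold change of the 41 genes in OCI-AML2, log2 0.81 ± 0.399, on 15 to 21 counts with selinexor and 5 to 21 with vehicle, and it did not pass (adjusted p = 0.074); its groups overlapped. It was called higher without OCI-AML2 vehicle library 3 (1.52, adjusted p = 0.0054) and in limma voom (0.98, adjusted p = 0.031), and in MOLM-13 without vehicle library 3 (0.84, adjusted p = 0.040, against 0.41 ± 0.299, adjusted p = 0.22, with it).

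The constitutive beta ring, which holds the cutting sites, fell in 7 of 7 genes in both lines, with median log2 fold changes of -0.34 in OCI-AML2 and -0.46 in MOLM-13. PSMB5 cuts after hydrophobic residues and is the main target of bortezomib. It was 105, 97.3 and 103 CPM in the OCI-AML2 selinexor libraries and 133, 129 and 125 CPM in the vehicle libraries. In MOLM-13 it was 64.1, 63.2 and 68.1 CPM with selinexor and 90.7, 82.4 and 81.2 CPM with vehicle. All selinexor libraries lay below all vehicle libraries in both lines, and PSMB5 fell by 0.34 ± 0.052 and 0.38 ± 0.062 on the log2 scale (adjusted p = 2.1e-07 and 8.0e-08).

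PSMB6, which cuts after acidic residues, also fell in both lines. Its levels were 72.8, 72.6 and 72.4 CPM with selinexor and 105, 119.5 and 106 CPM with vehicle in OCI-AML2. In MOLM-13 they were 69.0, 73.8 and 74.7 CPM with selinexor and 105, 112 and 96.6 CPM with vehicle. The groups did not overlap, and the gene fell by 0.60 ± 0.059 and 0.53 ± 0.059 on the log2 scale (adjusted p = 5.3e-12 and 1.3e-13).

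PSMB7, which cuts after basic residues, had the smallest fold changes of the constitutive cutting subunits. Its levels were 160.1, 154 and 153 CPM with selinexor and 173, 163 and 179 CPM with vehicle in OCI-AML2. In MOLM-13 they were 138, 155 and 153 CPM with selinexor and 169.9, 169 and 167 CPM with vehicle. The selinexor libraries lay below the vehicle libraries by small margins, with log2 fold changes of -0.14 ± 0.047 and -0.18 ± 0.046 (adjusted p = 0.010 and 0.00032). The OCI-AML2 call was lost with upper quartile scaling (log2 fold change -0.08, adjusted p = 0.12), in the joint fit (-0.09, adjusted p = 0.072) and without vehicle library 3 (-0.11, adjusted p = 0.070) or selinexor library 3 (-0.12, adjusted p = 0.055). Among the beta subunits without a cutting site, PSMB2 had log2 fold changes of -0.59 ± 0.044 and -0.56 ± 0.047, and PSMB4 had the smallest in MOLM-13, -0.14 ± 0.039, a call lost there with upper quartile scaling (-0.07, adjusted p = 0.12).

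**Figure D2:**
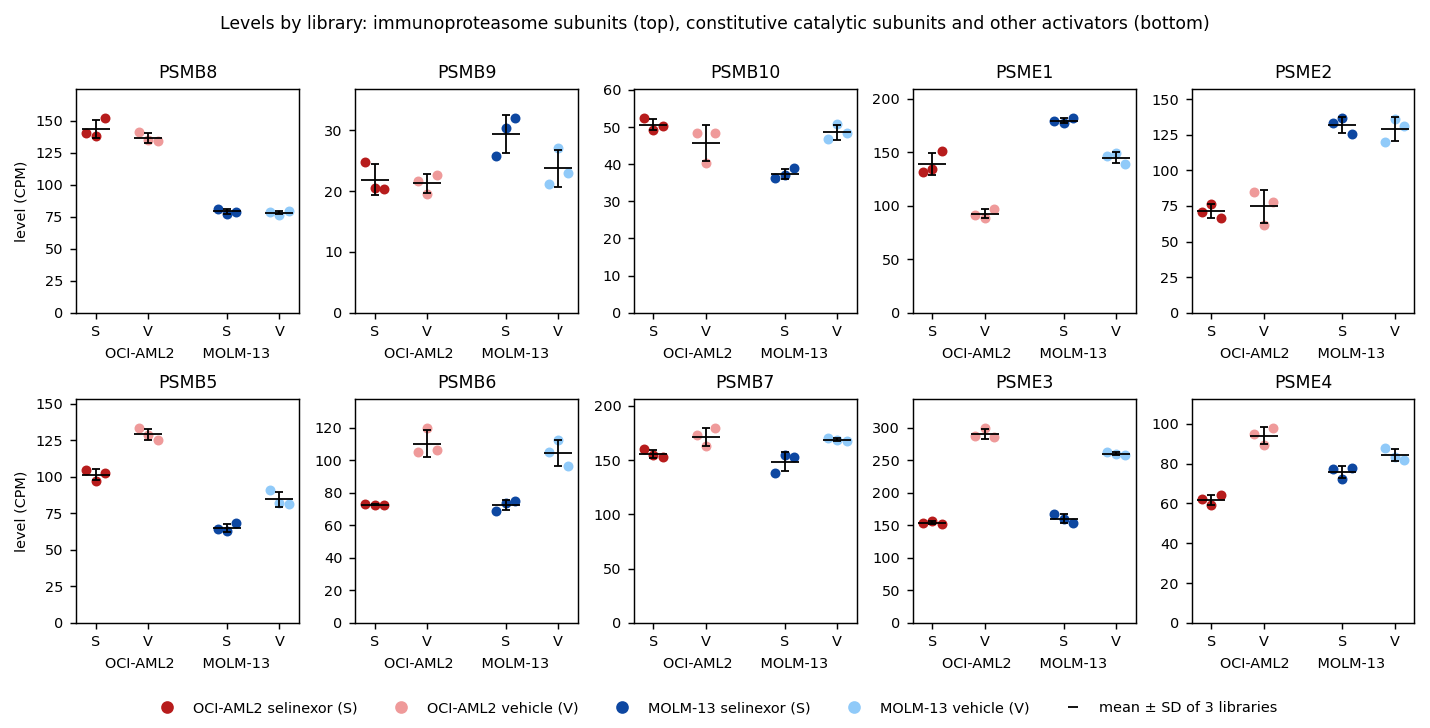
Level in CPM (y axis, from 0) of the 5 immunoproteasome genes (top row) and of the cutting subunits and other activators (bottom row) in each library; points are libraries, bars are the mean ± SD of 3, with selinexor (S) left of vehicle (V) in each line. In the bottom row every selinexor library lies below every vehicle library of its line. In the top row PSME1 lies above in both lines, and PSMB8, PSMB9 and PSME2 overlap in both. PSMB10 lies above in OCI-AML2 and below in MOLM-13.

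Of the 17 subunits of the regulatory particle, 16 fell in OCI-AML2 and 17 in MOLM-13. All 6 ATPases, the motor that unfolds substrates, fell in both lines, with median log2 fold changes of -0.65 in OCI-AML2 and -0.60 in MOLM-13. PSMC3 was 107, 108 and 120.1 CPM with selinexor and 182, 185 and 174 CPM with vehicle in OCI-AML2. The MOLM-13 values were 119, 107 and 111 CPM with selinexor and 190.3, 214 and 188 CPM with vehicle. No library of one treatment reached the other, and PSMC3 fell by 0.69 ± 0.050 and 0.81 ± 0.049 on the log2 scale (adjusted p = 6.6e-16 and 5.0e-28). PSMC4 had the largest ATPase change in OCI-AML2, -0.88 ± 0.061, and -0.56 ± 0.050 in MOLM-13. Log2 fold changes of the other 4 ATPases ranged between -0.68 and -0.47 in OCI-AML2 and between -0.65 and -0.43 in MOLM-13.

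Among the 11 non-ATPase subunits, 10 fell in OCI-AML2 and 11 in MOLM-13, with a median log2 fold change of -0.55 in each. PSMD11, a scaffold of the lid that clamps the regulatory particle onto the barrel, had the largest called fall in both lines. It was 79.9, 75.7 and 68.6 CPM with selinexor and 152, 151 and 149 CPM with vehicle in OCI-AML2, and 65.4, 67.3 and 62.7 CPM with selinexor and 126, 127 and 136 CPM with vehicle in MOLM-13. Selinexor libraries lay far below vehicle libraries in both lines, with log2 fold changes of -1.01 ± 0.055 and -0.99 ± 0.056 (adjusted p = 4.2e-20 and 8.8e-31).

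PSMD1, a large scaffold of the base, was 87.9, 79.4 and 87.2 CPM with selinexor and 163, 179 and 166 CPM with vehicle in OCI-AML2. In MOLM-13 it was 89.4, 93.4 and 88.8 CPM with selinexor and 151, 134 and 135 CPM with vehicle. It fell in both lines without overlap, by 1.00 ± 0.053 and 0.63 ± 0.053 on the log2 scale (adjusted p = 2.0e-20 and 1.1e-19). PSMD2, the base subunit on which shuttle factors dock, had log2 fold changes of -0.81 ± 0.040 and -0.64 ± 0.041. PSMD14, the deubiquitinase that removes the ubiquitin chain from a substrate, had -0.44 ± 0.053 and -0.55 ± 0.058.

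PSMD4, a ubiquitin receptor of the regulatory particle, was the exception in OCI-AML2. Its levels there were 148, 141 and 148 CPM with selinexor and 154, 139.6 and 154 CPM with vehicle. In MOLM-13 they were 205, 197 and 201 CPM with selinexor and 256, 257 and 247 CPM with vehicle. The groups overlapped in OCI-AML2 (log2 fold change -0.03 ± 0.049, adjusted p = 0.57; 0.02 with upper quartile scaling and 0.01 in the joint fit) and stood apart in MOLM-13, where the gene fell (-0.33 ± 0.040, adjusted p = 4.3e-12).

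The 3 PSMD genes that encode assembly chaperones of the base, PSMD5, PSMD9 and PSMD10, do not stay in the finished particle. None passed in OCI-AML2, with log2 fold changes between -0.19 and 0.08, by edgeR or at an unadjusted p under 0.05; DESeq2 and voom also called 0 of them. In MOLM-13, PSMD5 rose by 0.23 ± 0.072 (adjusted p = 0.0030), its selinexor libraries all above its vehicle libraries. PSMD10 had 0.18 ± 0.087 there (adjusted p = 0.070) and passed with upper quartile scaling (0.25, adjusted p = 0.011) and without vehicle library 2 or selinexor library 1 (adjusted p = 0.042 and 0.026).

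The other activators are caps found mainly in the nucleus, and both fell. PSME3, the PA28 gamma cap, was 153, 157 and 152 CPM with selinexor and 286, 299 and 286 CPM with vehicle in OCI-AML2. The MOLM-13 values were 167, 159.9 and 153 CPM with selinexor and 262, 259 and 258 CPM with vehicle. The gap between the groups was many times their spread, with log2 fold changes of -0.91 ± 0.042 and -0.70 ± 0.042 (adjusted p = 1.6e-22 and 5.2e-29).

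PSME4, the PA200 cap, was 62.2, 59.0 and 64.2 CPM with selinexor and 94.9, 89.4 and 97.6 CPM with vehicle in OCI-AML2. In MOLM-13 it was 77.3, 72.5 and 77.9 CPM with selinexor and 87.6, 83.1 and 82.0 CPM with vehicle. Its fall was -0.60 ± 0.061 in OCI-AML2 (adjusted p = 1.3e-11), and the change in MOLM-13 was small, -0.15 ± 0.060 (adjusted p = 0.022). The MOLM-13 call was lost with upper quartile scaling (-0.08, adjusted p = 0.23), in DESeq2 (adjusted p = 0.058) and without vehicle library 1 or selinexor library 2 (adjusted p = 0.088 and 0.12).

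Of the 5 immunoproteasome genes, PSME1 rose in both lines. In OCI-AML2, 0 of the 5 genes fell and 1 rose, where 31.8% of all genes tested fell and 31.3% rose, with a median log2 fold change of 0.07 over the 5; none was lower at an unadjusted p under 0.05 in edgeR or called lower by DESeq2 or limma voom. In MOLM-13, 1 fell and 2 rose, where 31.8% of all genes tested fell and 31.8% rose, with a median of 0.03. The other 36 genes had medians of -0.49 and -0.53. The number of immunoproteasome genes that rose in OCI-AML2 was 3 (PSME1, PSMB8 and PSMB10) with upper quartile scaling and in the joint fit of the 12 libraries. All genes also moved up in these settings. In OCI-AML2, 3785 genes rose and 3840 fell in the fit per line, 4240 and 3332 with upper quartile scaling, and 4198 and 3456 in the joint fit. The all-gene median log2 fold changes were -0.002, 0.053 and 0.047. The part of scaling in the added calls was not tested.

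PSME1, a subunit of the interferon-inducible PA28 cap on chromosome 14 (24136158 to 24138967, plus strand), rose in both lines. Its levels were 131, 135 and 151 CPM with selinexor and 91.5, 88.8 and 97.4 CPM with vehicle in OCI-AML2. In MOLM-13 they were 179.7, 177 and 182 CPM with selinexor and 146, 149.7 and 139.6 CPM with vehicle. All selinexor libraries lay above all vehicle libraries, with log2 fold changes of 0.59 ± 0.056 (adjusted p = 2.7e-12) and 0.31 ± 0.045 (adjusted p = 3.4e-09). Over all alternatives it stayed between 0.53 and 0.64 in OCI-AML2 and between 0.28 and 0.38 in MOLM-13, called in each.

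PSME2, its partner in the same cap, lies beside it on chromosome 14 (24143362 to 24147570, minus strand). Its levels were 70.9, 76.6 and 66.8 CPM with selinexor and 84.5, 61.7 and 77.7 CPM with vehicle in OCI-AML2. In MOLM-13 they were 134, 137 and 126 CPM with selinexor and 119.8, 136 and 131 CPM with vehicle. The groups overlapped in both lines, and the log2 fold changes, -0.06 ± 0.111 and 0.03 ± 0.050, did not pass (adjusted p = 0.67 and 0.58). Without OCI-AML2 vehicle library 2, the library with the lowest value, PSME2 was called lower there (-0.19, adjusted p = 0.011).

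PSMB8, which replaces PSMB5, lies on chromosome 6 (32840717 to 32844703, minus strand) and overlaps the start of PSMB9 on the other strand. It was 140.1, 138 and 152 CPM with selinexor and 141, 135 and 134 CPM with vehicle in OCI-AML2. The MOLM-13 values were 81.3, 77.0 and 79.0 CPM with selinexor and 78.6, 76.6 and 79.0 CPM with vehicle. The groups overlapped in both lines, with log2 fold changes of 0.07 ± 0.049 and 0.02 ± 0.060 (adjusted p = 0.22 and 0.81). In OCI-AML2 it was called higher with upper quartile scaling (0.12, adjusted p = 0.027) and in the joint fit (0.11, adjusted p = 0.044).

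PSMB9, which replaces PSMB6 (chromosome 6, 32844136 to 32859585, plus strand), was 24.8, 20.5 and 20.3 CPM with selinexor and 21.7, 19.5 and 22.6 CPM with vehicle in OCI-AML2. In MOLM-13 it was 25.8, 30.3 and 32.0 CPM with selinexor and 21.1, 27.0 and 23.0 CPM with vehicle. It did not pass in OCI-AML2 (0.04 ± 0.105, adjusted p = 0.77) and rose in MOLM-13 (0.30 ± 0.099, adjusted p = 0.0054), although the libraries overlapped; without MOLM-13 vehicle library 1 that call was lost (0.23, adjusted p = 0.062).

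PSMB10, which replaces PSMB7, lies on chromosome 16 (67934502 to 67937087, minus strand). It was 52.4, 49.3 and 50.4 CPM with selinexor and 48.5, 40.2 and 48.5 CPM with vehicle in OCI-AML2. The MOLM-13 values were 36.2, 37.0 and 39.0 CPM with selinexor and 46.7, 50.8 and 48.5 CPM with vehicle. The selinexor libraries lay just above vehicle in OCI-AML2 (0.15 ± 0.075, adjusted p = 0.077) and well below in MOLM-13, where the gene fell (-0.38 ± 0.079, adjusted p = 1.4e-05). In OCI-AML2 it was called higher with upper quartile scaling (0.21, adjusted p = 0.016), in the joint fit (0.19, adjusted p = 0.020) and without vehicle library 1 or 3 (adjusted p = 0.045 and 0.041). Without strand, reads of these genes and of genes that overlap them cannot be told apart. In GENCODE 29, exons of other genes cover 45.3% of the coding-transcript bases of PSMB10, 27.4% of those of PSMB8 and 15.1% of those of PSMB9; their part in the values was not tested.

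Each immunoproteasome cutting subunit was also set against the constitutive subunit it replaces, as the log2 ratio of their counts within a library, which needs no library scaling and is given without a test. PSMB8 over PSMB5 was 0.42, 0.51 and 0.56 with selinexor and 0.09, 0.07 and 0.10 with vehicle in OCI-AML2, and 0.34, 0.28 and 0.21 with selinexor and -0.21, -0.11 and -0.04 with vehicle in MOLM-13. The mean ratio was higher with selinexor by 0.41 and 0.40, and the groups did not overlap. PSMB9 over PSMB6 was -1.55, -1.82 and -1.83 with selinexor and -2.27, -2.62 and -2.23 with vehicle in OCI-AML2, and -1.42, -1.28 and -1.22 with selinexor and -2.31, -2.06 and -2.07 with vehicle in MOLM-13. Again the groups stood apart, with mean ratios higher by 0.63 and 0.84.

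PSMB10 over PSMB7 went in opposite ways in the lines. With selinexor it was -1.61, -1.65 and -1.60 in OCI-AML2, against -1.83, -2.02 and -1.88 with vehicle, a mean difference of 0.29. In MOLM-13 it was -1.93, -2.06 and -1.97 with selinexor, against -1.86, -1.73 and -1.79 with vehicle, a mean difference of -0.19. The libraries of the treatments did not overlap in either line. Summed, PSMB5, PSMB6 and PSMB7 held 330.0 ± 6.70 CPM with selinexor and 411 ± 0.347 CPM with vehicle in OCI-AML2, and 286 ± 13.0 CPM against 358 ± 11.2 CPM in MOLM-13. The sum of PSMB8, PSMB9 and PSMB10 was 216 ± 7.29 CPM with selinexor and 204 ± 8.46 CPM with vehicle in OCI-AML2, and 146 ± 3.56 CPM against 150.5 ± 3.97 CPM in MOLM-13, and its libraries overlapped between treatments in both lines.

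**Figure D3:**
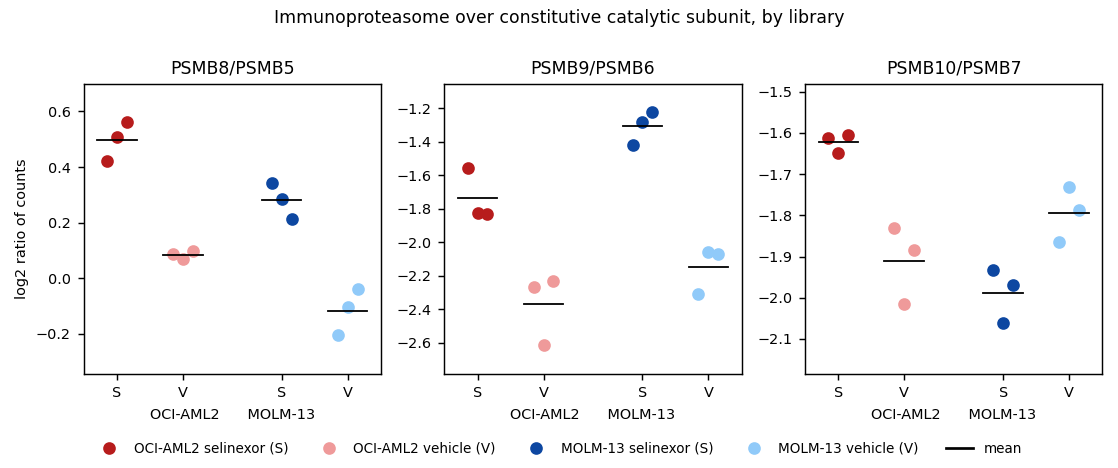
Log2 ratio of counts (y axis) of each immunoproteasome cutting subunit over the constitutive subunit it replaces, in each library (points) with the group mean (line); selinexor (S) stands left of vehicle (V). The first pair of panels shows selinexor above vehicle in both lines, and PSMB10 over PSMB7 shows it above in OCI-AML2 and below in MOLM-13.

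Levels between genes can be compared only per length, here as CPM per kilobase of coding-transcript exons. This length joins the exons of all coding transcripts of a gene, so it can exceed that of the transcripts in use. It reached 4665 bases for PSMA4 and 4843 for PSMB2. Which transcripts were expressed was not examined, so the order of genes is approximate. With selinexor, PSMB4 (187 ± 11.6) and PSMB3 (168 ± 9.50) led in OCI-AML2, where their libraries overlapped, and PSMB4 (269 ± 12.7) was highest in MOLM-13, all its libraries above those of PSMB1 (215 ± 2.10). With vehicle, PSMB1 (227 ± 13.2) and PSMB4 (222 ± 4.87) led in OCI-AML2, and PSMB4 (296 ± 14.1) and PSMB1 (296 ± 12.8) in MOLM-13; within each line these did not differ beyond their spread. In OCI-AML2 with selinexor, PSMB8 stood at 92.6 ± 4.73 per kilobase and PSMB5 at 69.4 ± 2.61, while with vehicle PSMB8 was 88.3 ± 2.56 and PSMB5 88.1 ± 2.71, within their spread. In MOLM-13 with selinexor, PSMB8 was 51.1 ± 1.41 and PSMB5 44.5 ± 1.78 per kilobase, and with vehicle PSMB8 was 50.4 ± 0.847 and PSMB5 57.9 ± 3.51. The order of this pair thus differed between the treatments in MOLM-13.

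The 2 lines were compared by the interaction of line and treatment in 1 fit of the 12 libraries, as the OCI-AML2 effect minus the MOLM-13 effect. The difference was called for 10 of the 41 genes, 6 higher and 4 lower, where 30.1% of 12530 genes tested were called, 19% higher and 11.1% lower. Over all genes, calls split into 2380 higher and 1388 lower, and into 1890 higher and 1828 lower with upper quartile scaling, under which 6 of the 41 genes were higher and 7 lower. Lower calls outnumbered higher ones when any 1 of 4 vehicle libraries was left out: 1542 higher and 2023 lower without OCI-AML2 vehicle library 1, 1604 and 2084 without library 2, 1646 and 2081 without library 3, and 1450 and 1904 without MOLM-13 vehicle library 2. Of the 41 genes, 5 or 6 were higher and 8 to 10 lower in these fits. The remaining 31 genes did not pass, which does not show that the lines acted alike. In the log2 fold changes of the separate fits, the lines had a Pearson correlation of 0.85 and a Spearman correlation of 0.81 across the 41 genes. Over the 32 genes outside the immunoproteasome other than PSMA1, PSMA2, PSMA6 and PSMD9, these were 0.77 and 0.68. All are descriptions without a test, since genes are not replicates, and the lines share no library.

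PSMB10 had the largest called difference, 0.58 ± 0.109 on the log2 scale (adjusted p = 1.1e-05), followed by PSMD4 at 0.35 ± 0.064 (adjusted p = 7.0e-06). PSME1 followed with 0.33 ± 0.072, having risen more in OCI-AML2. PSMA3, PSMA7 and PSMB3, which fell more in MOLM-13, had differences of 0.31, 0.31 and 0.28. PSME4 stood at the other end, -0.40 ± 0.086 (adjusted p = 9.5e-05), with PSMD1 at -0.32 ± 0.076 (adjusted p = 0.00048), PSMC4 at -0.27 ± 0.080 and PSME3 at -0.17 ± 0.061, all of which fell more in OCI-AML2. Without 1 library, PSMA3 (0.14, adjusted p = 0.12, without OCI-AML2 vehicle library 2), PSMB3 (0.17, adjusted p = 0.079, without OCI-AML2 vehicle library 3) and PSME3 (adjusted p = 0.056 to 0.11, without OCI-AML2 selinexor library 3, MOLM-13 vehicle library 3 or MOLM-13 selinexor library 1) were no longer called.

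**Figure D4:**
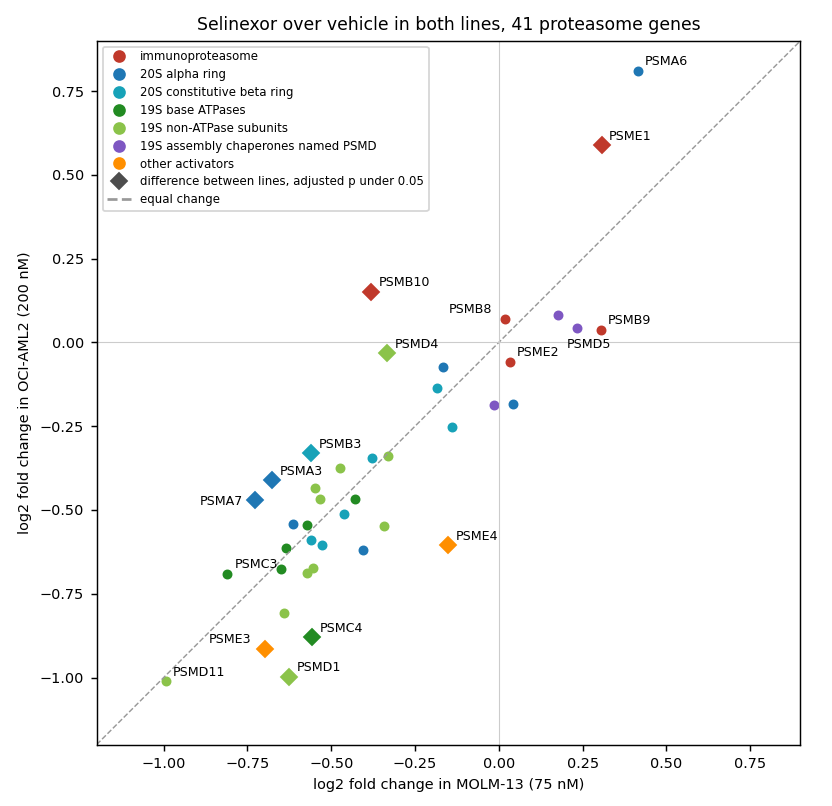
Log2 fold change with selinexor in OCI-AML2 (y axis) against that in MOLM-13 (x axis) for the 41 proteasome genes, coloured by role; diamonds mark an adjusted p under 0.05 for the difference between lines, and the dashed line marks equal change. Most genes lie at lower left near the line, PSME1 lies at upper right, and PSMB10 and PSMD4 lie furthest above the line among the diamonds.

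Without drug, proteasome genes differed between the lines about as often as all genes tested. OCI-AML2 vehicle over MOLM-13 vehicle was higher for 14 genes, lower for 16 and not called for 11, where 71.2% of all genes tested were called, 36.2% higher and 35.0% lower; line and deposited table cannot be told apart here, and CPM in this paragraph is scaled over the 12 libraries. All OCI-AML2 vehicle libraries lay above those of MOLM-13 for 14 genes and below for 15, where 36.9% and 35.7% of all genes did so (72.7% either way). PSMB8 was 139, 133 and 131 CPM in OCI-AML2 vehicle libraries and 79.1, 77.2 and 79.7 CPM in MOLM-13 vehicle libraries, with no overlap and a log2 fold change of 0.77 ± 0.054. Of the other immunoproteasome genes, PSME1 (-0.68 ± 0.052) and PSME2 (-0.83 ± 0.091) were lower in OCI-AML2, and PSMB9 and PSMB10 did not pass (-0.20 ± 0.104 and -0.13 ± 0.075; adjusted p = 0.079 and 0.11). PSMD2 was highest in OCI-AML2 relative to MOLM-13, with 0.89 ± 0.039, at 510.3, 546 and 537 CPM in OCI-AML2 and 284, 297 and 282 CPM in MOLM-13. PSMD5 was lowest, with -1.59 ± 0.089, at 17.4, 16.2 and 14.5 CPM in OCI-AML2 and 50.5, 47.1 and 47.7 CPM in MOLM-13.

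Genes that build and adjust the proteasome mostly fell as well. Of 13 assembly chaperones, further components and regulators, 10 fell and 1 rose (PAAF1) in OCI-AML2, and 11 fell and 1 rose (ECPAS) in MOLM-13. Of all genes tested, 31.8% fell and 31.3% rose in OCI-AML2, and 31.8% fell and 31.8% rose in MOLM-13. PSMG1, an assembly chaperone of the alpha ring, averaged 31.7 ± 0.214 CPM with selinexor and 59.5 ± 2.37 CPM with vehicle in OCI-AML2, and 38.1 ± 4.33 CPM against 70.6 ± 2.01 CPM in MOLM-13. Its log2 fold changes were -0.91 ± 0.073 and -0.89 ± 0.073. ADRM1, a ubiquitin receptor, had -0.71 ± 0.053 and -0.83 ± 0.053, POMP, which matures the barrel, -0.54 ± 0.052 and -0.54 ± 0.043, and UCHL5, a deubiquitinase held by ADRM1, -0.37 ± 0.045 and -0.42 ± 0.046.

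Of 7 genes for NFE2L1, its relative NFE2L2 and the steps that activate NFE2L1, 2 fell in OCI-AML2, and 2 fell and 1 rose in MOLM-13. Over all genes tested, 31.8% fell and 31.3% rose in OCI-AML2, and 31.8% went each way in MOLM-13. VCP, the ATPase that pulls NFE2L1 out of the endoplasmic reticulum, fell by 0.57 ± 0.042 and 0.57 ± 0.039 on the log2 scale. DDI2, the protease that cleaves NFE2L1 into its active form, had -0.67 ± 0.067 and -0.17 ± 0.065; the MOLM-13 call was lost with upper quartile scaling, in DESeq2 and without vehicle library 1 or selinexor library 1 (adjusted p = 0.18, 0.059, 0.079 and 0.19). NGLY1, which removes its sugar chains, had -0.04 ± 0.090 and 0.45 ± 0.085, a rise in MOLM-13 (adjusted p = 2.0e-06). SYVN1, a ubiquitin ligase of the endoplasmic reticulum, had 0.13 ± 0.065 and -0.06 ± 0.075 (adjusted p = 0.079 and 0.47), and was called higher in OCI-AML2 with upper quartile scaling (0.18, adjusted p = 0.013) and in the joint fit (0.17, adjusted p = 0.020).

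Ubiquitin genes and shuttle factors went both ways, with 3 rising and 4 falling of 11 in OCI-AML2 and 4 rising and 7 falling in MOLM-13. Among all genes tested, 31.3% rose and 31.8% fell in OCI-AML2, and 31.8% went each way in MOLM-13. SQSTM1, an autophagy receptor for ubiquitylated proteins, averaged 165 ± 4.40 CPM with selinexor and 89.5 ± 3.23 CPM with vehicle in OCI-AML2, and 96.2 ± 2.39 CPM against 66.3 ± 3.42 CPM in MOLM-13. Its log2 fold changes were 0.88 ± 0.051 and 0.54 ± 0.060. RPS27A, which encodes ubiquitin fused to a ribosomal protein, rose by 0.32 ± 0.064 and 0.32 ± 0.030. RAD23B, a shuttle that carries ubiquitylated proteins to the proteasome, fell in both lines, with -0.59 ± 0.043 and -0.53 ± 0.041. The polyubiquitin gene UBB fell in MOLM-13 (-0.28 ± 0.033) and did not pass in OCI-AML2 (-0.11 ± 0.058, adjusted p = 0.12), where it passed without vehicle library 2 (-0.19, adjusted p = 8.8e-06).

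Interferon-gamma signalling genes, listed because this pathway is the known inducer of the immunoproteasome, held 11 symbols, of which GBP1 and GBP2 did not pass the filter on low counts. In each line 3 of the 9 tested rose and 1 fell. Over all genes tested, 31.3% rose and 31.8% fell in OCI-AML2, and 31.8% went each way in MOLM-13. The regulatory factor IRF8 had log2 fold changes of 0.22 ± 0.038 and 0.75 ± 0.032, and the receptor chain IFNGR2 of 0.38 ± 0.071 and 0.34 ± 0.080. NLRC5, the activator of HLA class I genes, fell in OCI-AML2 (-0.30 ± 0.057) and did not pass in MOLM-13 (-0.09 ± 0.091, adjusted p = 0.37). SOCS1, a feedback inhibitor of the pathway, did not pass in OCI-AML2 (0.26 ± 0.42, adjusted p = 0.61) and rose in MOLM-13 (1.04 ± 0.21). Among 9 genes that supply peptides to HLA class I, 5 rose and 2 fell in OCI-AML2, and 6 rose and 2 fell in MOLM-13. These counts stand beside the same shares over all genes. B2M, the light chain, had 0.61 ± 0.040 and 0.27 ± 0.034, and ERAP1, which trims peptides, 0.44 ± 0.053 and 0.74 ± 0.056. The folding factors PDIA3 (-0.22 ± 0.038 and -0.42 ± 0.038) and CALR (-0.03 ± 0.038, adjusted p = 0.44, and -0.42 ± 0.029) went the other way: PDIA3 fell in both lines and CALR in MOLM-13.

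**Figure D5:**
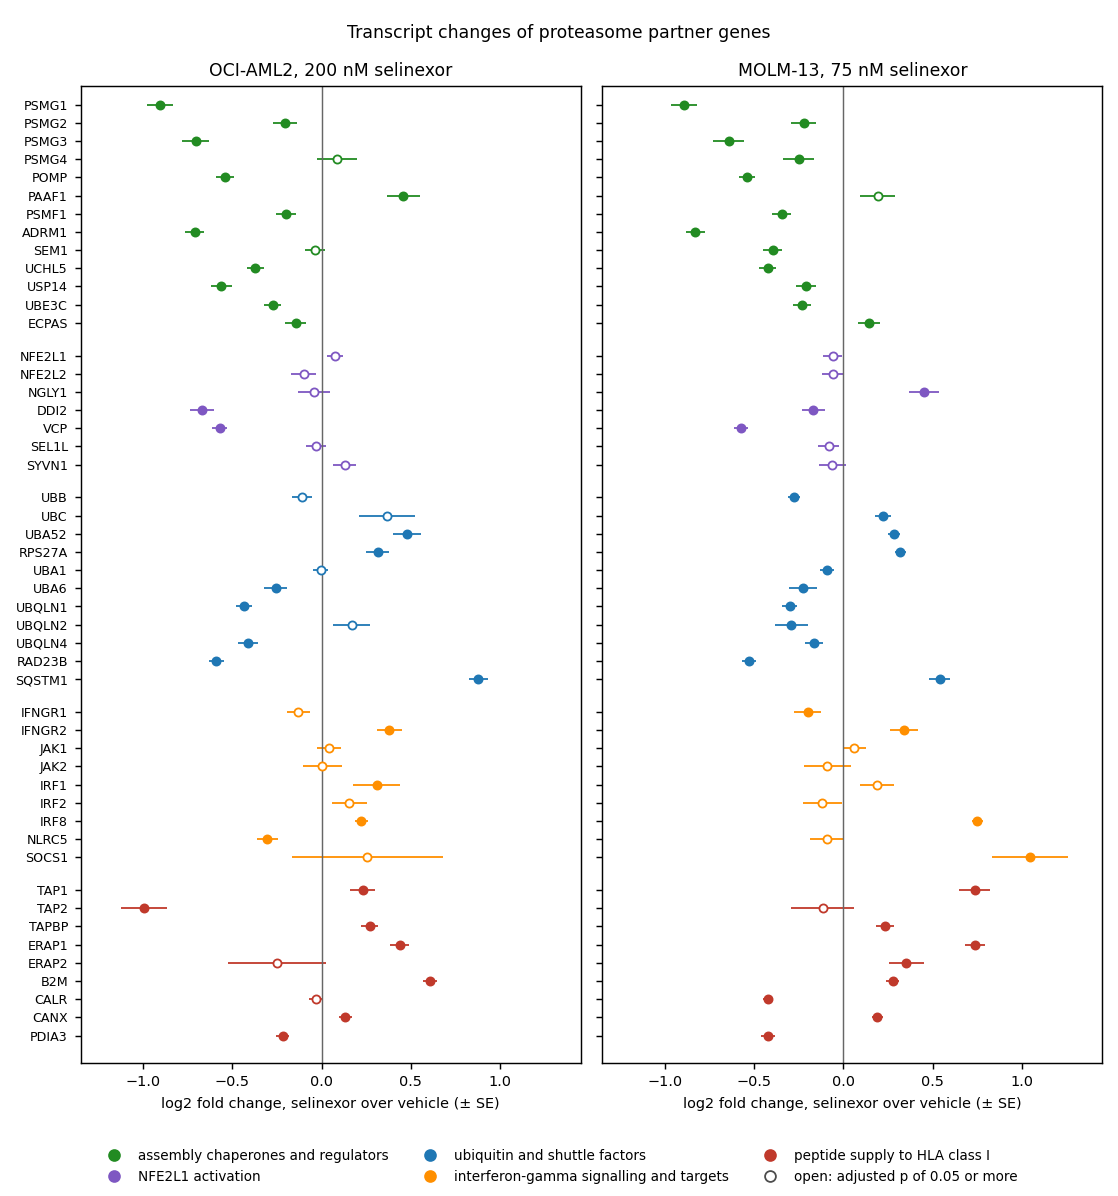
Log2 fold change, selinexor over vehicle (x axis, estimate ± SE), of the partner genes of the proteasome in OCI-AML2 (left) and MOLM-13 (right), coloured by list; filled points have an adjusted p under 0.05. Assembly chaperones and regulators lie mostly left of 0, SQSTM1, B2M and ERAP1 lie right of 0 in both lines, and GBP1 and GBP2 are not drawn because they were not tested.

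The authors' deposited table for MOLM-13 holds log2 fold changes with vehicle on top, whose sign was turned here; in it all 41 genes had the same sign as in the edgeR fit, and the largest absolute difference in log2 fold change was 0.021.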

How the data were processed

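RNA was extracted with a Qiagen RNeasy kit, poly(A) selected and made into libraries without strand information, per the labels' protocols. Alignment used STAR on hg38, with DESeq2 and R 3.6.1 for analysis, per the submitters' processing notes. Which program counted reads, and on which gene models, is not given in the sources used here. For each line the authors deposited 1 table of raw counts per gene, and for MOLM-13 also a separate table of log2 fold changes. The submitters describe biologically independent triplicates; numbers given to libraries here come from the order of columns and serve as names. Columns of other samples numbered 0.

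Each line was fitted with edgeR 4.0.16 (R 4.3.3): genes passing a filter on low counts (minimum count 10, minimum total 15), TMM scaling, the robust quasi-likelihood test and Benjamini-Hochberg adjustment over all genes tested, with a threshold of 0.05. Differences between lines and the vehicle contrast came from 1 fit of the 12 libraries on genes in both tables, so they are not exact subtractions. A floor of 3 counts is 0.249 to 0.375 CPM, which covers counting error only. The fit was tested on simulated data. Alternatives were DESeq2 size factors, upper quartile scaling, no filter, DESeq2 1.42.0, limma 3.58.1 voom, the joint fit and leaving out each library.

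The members and lists were chosen with earlier results of these data known. Any member may be named; values per library are given for the immunoproteasome genes, PSMB5, PSMB6, PSMB7, PSME3, PSME4, the 2 largest called rises and falls per line and the 2 largest called differences in each direction. Up to 4 partners per list were named by smallest p over the lines, with some listed genes not reported here; PAAF1 and ECPAS were named after their values were seen. RefSeq promoters were searched by letters.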

Additional observations from a re-analysis of the deposited data

Results flagged for a closer look

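The selinexor effect differed between the lines, by the interaction test of the joint edgeR fit (adjusted p under 0.05), for 10 of the 41 proteasome genes and 9 of the named partner genes. Of all 12530 genes tested, 30.1% were called. The partners were named by smallest p over the lines, so their count cannot be set against that share. Line and dose cannot be told apart in any of these differences. Values are the OCI-AML2 effect minus the MOLM-13 effect on the log2 scale.

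Among proteasome genes the difference was 0.58 for PSMB10, 0.35 for PSMD4, 0.33 for PSME1, 0.31 for PSMA3, 0.31 for PSMA7 and 0.28 for PSMB3. It was -0.40 for PSME4, -0.32 for PSMD1, -0.27 for PSMC4 and -0.17 for PSME3.

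Among partner genes it was 0.44 for CALR, 0.39 for SQSTM1, 0.38 for B2M, 0.25 for PDIA3 and 0.21 for UBB, and -0.48 for IRF8, -0.45 for DDI2, -0.45 for NGLY1 and -0.25 for ERAP1. The UBB difference was lost with DESeq2 size factors, upper quartile scaling (0.16, adjusted p = 0.089), the DESeq2 test and limma voom. It was also lost without any 1 of 6 libraries (vehicle libraries 1 and 2 of each line and selinexor library 3 of each line), with values down to 0.048, without OCI-AML2 vehicle library 2 (adjusted p = 0.53). The PDIA3 difference was lost without MOLM-13 vehicle library 2 (0.14, adjusted p = 0.065).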

How the results depend on the processing

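No paired analysis was possible because the columns carry no replicate numbers. The number of proteasome genes higher in OCI-AML2, 1 in the edgeR fit per line, was 3 with upper quartile scaling, 2 in limma voom and 3 in the joint fit, and 1 to 3 with each library left out. Over all genes, 3785 were higher in OCI-AML2 in the fit per line, 4240 with upper quartile scaling, 3787 in limma voom and 4198 in the joint fit. The number with a lower OCI-AML2 effect, 4, was 7 with DESeq2 size factors, 7 with upper quartile scaling and 3 to 10 with each library left out (9 without OCI-AML2 vehicle library 1, 10 without library 2, 8 without library 3 and 9 without MOLM-13 vehicle library 2). With libraries left out, OCI-AML2 calls numbered 29 to 32 (28 to 31 lower), MOLM-13 calls 32 to 35 (2 to 4 higher, 30 to 31 lower), differences 10 to 15 (5 to 7 higher) and vehicle calls 28 to 32 (14 to 18 higher, 13 to 16 lower). Without OCI-AML2 vehicle library 2, the library that lay apart, 32 genes were called in OCI-AML2, PSMA1 (-0.39, adjusted p = 0.00030) among them.

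Signs that turned belonged to values that did not pass in the fit per line. In OCI-AML2 these were CALR (0.021 with upper quartile scaling, 0.0087 in the joint fit), NGLY1 (0.013 and 0.0010), PSMD4 (0.022 and 0.0098) and PSMA1 (0.040 in voom). In MOLM-13 they were PSMD9 (0.056) and SYVN1 (0.0066) with upper quartile scaling, PSMB8 (-0.0016) without a filter and PSMA2 (-0.0062) in voom. With each library left out, OCI-AML2 ranges were -0.14 to 0.014 for NGLY1, -0.39 to 0.18 for PSMA1, -0.43 to 0.067 for PSMA2, -0.059 to 0.090 for PSMB9, -0.027 to 0.096 for PSMD5, -0.44 to 0.25 for PSMD9 and -0.19 to 0.031 for PSME2. MOLM-13 ranges were -0.16 to 0.0021 for NLRC5, -0.10 to 0.28 for PSMA2, -0.0058 to 0.037 for PSMB8, -0.085 to 0.088 for PSMD9 and -0.019 to 0.070 for PSME2. Over all genes tested, the median log2 fold change in OCI-AML2 was 0.053 with upper quartile scaling and 0.047 in the joint fit, against -0.002 in the fit per line. In MOLM-13 it was 0.079 with upper quartile scaling, against 0.009. The cause of the turned signs was not tested. Low counts limit PSMA2, PSMA6 and PSMD9. PSMA1 had more counts, and its OCI-AML2 vehicle libraries were spread between 14.7 and 35.2 CPM (scaled over the 12 libraries).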
